A study of Homo sapiens with 6 samples.

Results

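The genes described here are 10 genes of the NRF2 antioxidant response, of glutathione use and of ferritin iron handling, taken by symbol (*NFE2L2*, *KEAP1*, *HMOX1*, *NQO1*, *GCLC*, *GCLM*, *GPX4*, *FTH1*, *FTL* and *TFRC*). All 10 were found among the 15917 genes of the table that accompanies the RNA-seq of MDA-MB-231, a human triple-negative breast cancer line, in which the RNA-binding protein RBMS3 was silenced. The labels give 6 total RNA libraries, 2 of control cells (shCTRL, genotype WT) and 2 for each of the hairpins shRBMS3-B3 (RBMS3 KD1) and shRBMS3-C3 (RBMS3 KD2). Per the study's methods, luciferase-labeled cells had been transduced with lentiviral hairpins and selected with puromycin, a treatment that knockdown cells and hairpin controls share. The value used is the authors' mean normalized count, 1 value per gene averaged over libraries, with no value of a single library. Which libraries entered it is not stated, so a level here is that of a mixture of control and *RBMS3*-silenced cells in unknown proportion. A figure legend of the study gives 2 replicates each of knockdown and control cells for this comparison, without naming a hairpin. No difference between knockdown and control cells is given, no test was run, and neither depth nor spread between replicates is known for any level below.

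NRF2, encoded by *NFE2L2*, is a transcription factor that is held back by KEAP1, an adaptor of a CUL3 ubiquitin ligase that senses electrophiles. When released, NRF2 binds antioxidant response elements with small MAF partners and raises enzymes that detoxify quinones and heme, make glutathione and store iron. Glutathione serves GPX4, the selenoenzyme that reduces lipid peroxides and restrains ferroptosis, a form of cell death that depends on iron. Iron enters cells through the transferrin receptor, encoded by *TFRC*, and is kept in shells of ferritin heavy chains (*FTH1*) and light chains (*FTL*). Iron regulatory proteins bind a small stem-loop, the iron-responsive element, in the 5′UTR of ferritin mRNAs, where they block translation, and in the 3′UTR of *TFRC* mRNA, where they protect it from decay.

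These elements were read from the representative transcripts as the letters of the stem-loop. The pattern was a C, 5 bases, the loop CAGTG followed by A, C or T, and 5 bases that pair with the earlier 5 (G-T pairs allowed), on the transcript strand. The sites are shown because they set the iron genes apart from the other members by sequence alone. Each is printed from 5′ to 3′ on the transcript strand (GRCh38, GENCODE release 44) with the loop in capitals. The *FTH1* site lies at chr11:61967574-61967602 (minus strand, exon 1) and the *FTL* site at chr19:48965335-48965363 (plus strand, exon 1), both in the 5′UTR. The *TFRC* sites 1 to 4 lie in the 3′UTR, in exon 19 on the minus strand, at chr3:196050979-196051007, chr3:196050575-196050603, chr3:196050510-196050538 and chr3:196050463-196050491.
FTH1: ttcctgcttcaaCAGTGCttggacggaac
FTL: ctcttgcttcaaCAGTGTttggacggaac
TFRC 1: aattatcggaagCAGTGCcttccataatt
TFRC 2: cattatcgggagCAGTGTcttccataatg
TFRC 3: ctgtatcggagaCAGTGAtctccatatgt
TFRC 4: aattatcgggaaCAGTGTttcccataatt

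Among the 12409 listed genes with a coding sequence, 6 held this pattern in the 5′UTR, or 0.0484%, and *FTH1* and *FTL* were 2 of them. In the 3′UTR it was found in 80 genes, or 0.645%. Of these, *TFRC* had 4 matches and *GPI* had 2, and no other gene had more than 1. The other 7 members held no match in either UTR. The pattern is strict, so an element with a mismatch or another bulge would be missed, and a match is a description of letters and not of binding.

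Markers of the line's type were read first, which cannot tell this line from others of its type. Of 6 markers of its mesenchymal, triple-negative type, 5 were listed at high means, among them *VIM* at 69335 and *AXL* at 35387, and *SPARC* was not listed. Of 7 markers set down as low or unlisted, 4 were listed. The estrogen and progesterone receptor genes *ESR1* and *PGR* and the basal keratin gene *KRT5* were not listed, and *CDH1*, encoding E-cadherin, stood near the lowest listed mean at 31.6. *EPCAM*, an epithelial adhesion gene, stood at 107, above 25.7% of listed genes, and *GATA3*, a luminal transcription factor gene, at 171, above 34.2%. *ERBB2* was listed at 1557, above 83.4% of listed genes, although it was among those 7. Of the markers of other cells, the leukocyte gene *PTPRC* and the hepatocyte gene *ALB* were not listed and the endothelial gene *PECAM1* stood at 69.0. *RBMS3* itself had a mean of 272, which is a mean over libraries and so does not check the knockdown.

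The 10 genes spanned a wide range of levels, with the iron genes and *GPX4* at the top and *GCLC* and *HMOX1* at the bottom. The authors' mean per gene was 107-fold higher for *FTH1* than for *HMOX1*, and per kilobase of transcript *FTH1* was 189-fold above the lowest, *GCLC*. Of the 10 genes, 8 lay above the median of all listed genes, a mean of 364, and 4 lay in the top 10%, which starts at 2420. By construction, about 50 in 100 listed genes exceed the first limit and 10 in 100 the second. Together the 10 genes made up 0.220% of the sum of all listed means, and *FTH1* alone 0.0839%.

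**Figure D1:**
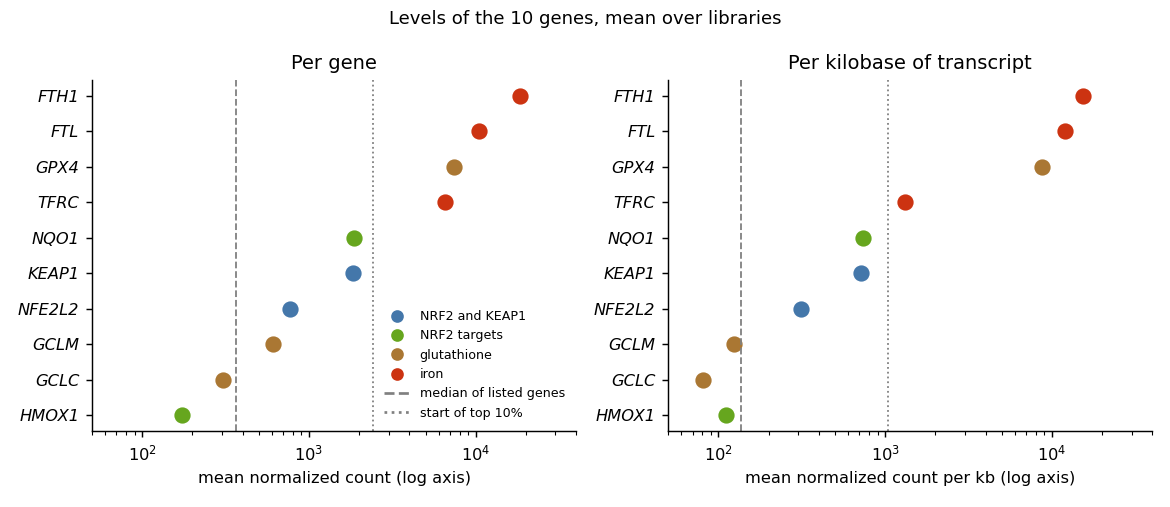
Authors' mean normalized count of the 10 genes (left) and the same divided by the length of the representative transcript in kilobases (right), each on a log axis, with points colored by role. The dashed line marks the median of all listed genes (364 per gene, 137 per kb) and the dotted line the start of the top 10% (2420 per gene, 1034 per kb); *FTH1*, *FTL*, *GPX4* and *TFRC* lie beyond the dotted line on both scales.

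Among the iron genes, *FTH1* (ENSG00000167996, chromosome 11 from 61959718 to 61967634), whose product oxidizes iron for storage, had a mean of 18477, rank 98 of the listed genes. *FTL* (ENSG00000087086, chromosome 19 from 48965309 to 48966879), whose product helps iron form its mineral core, had a mean of 10462, rank 237. The heavy-chain mean was thus 1.77-fold that of the light chain. Long transcripts collect more reads than short ones, so levels of different genes were also compared per kilobase of the representative transcript. On that scale *FTH1* stood at 15359 and *FTL* at 12011, and the ratio was 1.28. *TFRC* (ENSG00000072274, chromosome 3 from 196012511 to 196082153), the importer of iron-loaded transferrin, had a mean of 6551, rank 430. Its transcript of 5012 bases is the longest of the 10, against 871 bases for *FTL*. Per kilobase it stood at 1307, and *FTH1* was 11.8-fold higher, compared with 2.82-fold per gene.

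Ferritin chains have many processed copies in the genome that can share reads with the parent gene. GENCODE names 25 *FTH1* pseudogenes, of which 10 were listed in the table under these or older symbols, and 16 *FTL* pseudogenes, of which 1 was listed. The highest was *FTH1P2*, with a mean of 2039. *FTH1P8* followed at 408 and *FTH1P3* at 403, and *FTH1P12* was lowest at 27.8. The listed copies of *FTH1* summed to 3888, or 21.0% of the parent, and *FTLP3*, the listed copy of *FTL*, stood at 142, or 1.36%. With copies added to their parents, the ratio of heavy to light chain was 2.11 per gene. How the authors' counting divided reads between parent and copy was not tested, and the levels of *FTH1* and its copies are uncertain for this reason.

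**Figure D2:**
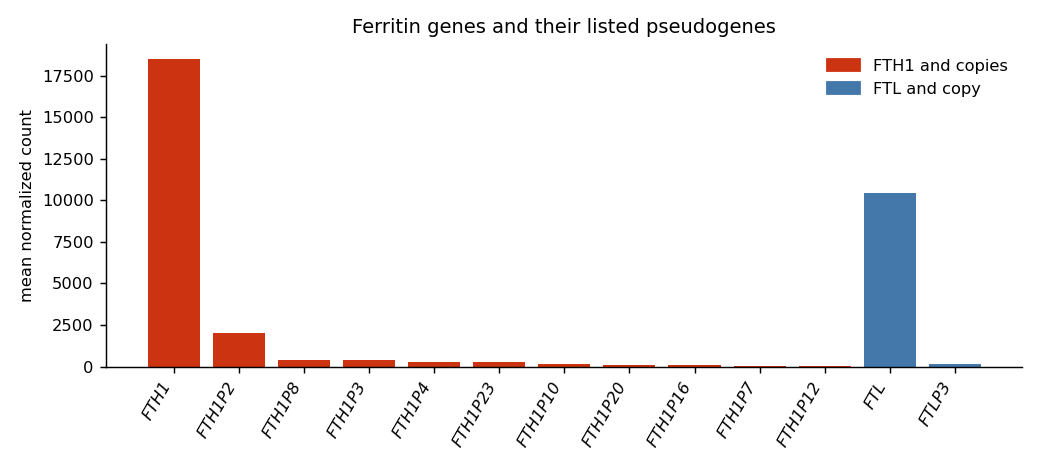
Authors' mean normalized count (linear axis from 0) of *FTH1* and its 10 listed pseudogenes in red and of *FTL* and its listed pseudogene in blue. *FTH1P2*, at 2039, is the highest of the copies, and the next, *FTH1P8*, stands at 408.

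Of the glutathione genes, *GPX4* (ENSG00000167468, chromosome 19 from 1103982 to 1106791) had a mean of 7425, rank 369. Its transcript, of 851 bases, is the shortest of the 10, and per kilobase it stood at 8725, next after the ferritin genes. The enzyme that makes the first bond of glutathione, glutamate-cysteine ligase, was listed at far lower levels. Its modifier subunit gene *GCLM* (ENSG00000023909, chromosome 1 from 93885199 to 93909456) had a mean of 608 and its catalytic subunit gene *GCLC* (ENSG00000001084, chromosome 6 from 53497341 to 53616970) a mean of 307. *GCLC* lay below the median of listed genes, above 46.0% of them. The mean of *GCLM* was 1.98-fold that of *GCLC*, and 1.53-fold per kilobase, where *GCLM* stood at 124 and *GCLC* at 81.1. Per kilobase both subunits lay below the median of 137. *GPX4* exceeded *GCLC* 24.2-fold per gene and 108-fold per kilobase.

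*NFE2L2* itself (ENSG00000116044, chromosome 2 from 177218667 to 177392756) had a mean of 767, above 68.1% of listed genes. Its inhibitor gene *KEAP1* (ENSG00000079999, chromosome 19 from 10486125 to 10503558) had a mean of 1848, 2.41-fold higher, and 2.30-fold higher per kilobase. Transcript levels do not show how much NRF2 protein is present, since KEAP1 acts on the protein. *NQO1* (ENSG00000181019, chromosome 16 from 69706996 to 69726668), the quinone reductase often used as a readout of NRF2, had a mean of 1867, next to that of *KEAP1*. *HMOX1* (ENSG00000100292, chromosome 22 from 35380361 to 35394214), the inducible heme oxygenase that frees iron from heme, had the lowest mean of the 10, 173, above 34.4% of listed genes. *NQO1* and *HMOX1* thus differed 10.8-fold per gene and 6.65-fold per kilobase. Per kilobase *HMOX1*, at 111, stood above *GCLC*, so the lowest place among the 10 depends on the scale.

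**Figure D3:**
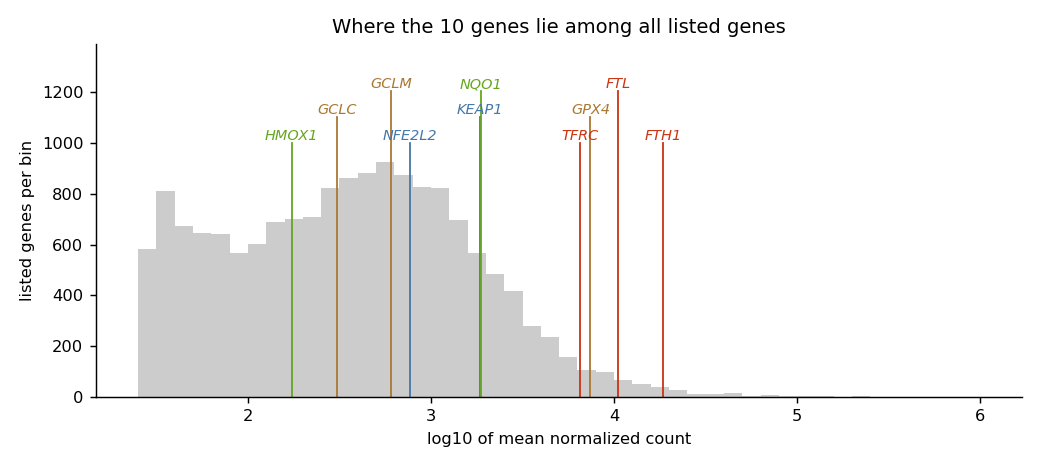
Number of listed genes per bin of log10 mean normalized count in gray, with a vertical line at the value of each of the 10 genes. The lines of *KEAP1* (1848) and *NQO1* (1867) nearly coincide, and those of *TFRC*, *GPX4*, *FTL* and *FTH1* stand in the thin right tail.

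In order of level per gene, the 10 genes ran *FTH1*, *FTL*, *GPX4*, *TFRC*, *NQO1*, *KEAP1*, *NFE2L2*, *GCLM*, *GCLC* and *HMOX1*. The closest neighbors were *NQO1* and *KEAP1*, at a ratio of 1.01, followed by *GPX4* and *TFRC* at 1.13 and *NFE2L2* and *GCLM* at 1.26. Per kilobase these ratios were 1.03, 6.68 and 2.52. Without values per library, whether these neighbors differ beyond the spread of replicates was not tested. In GENCODE, 6 of the 10 genes overlap another annotated gene, and for 2 of them an overlapping gene was also listed. The share of all listed genes with such an overlap was not counted, so these numbers do not set the 10 genes apart. *NFE2L2* overlaps *HNRNPA3* (2113) and *AGPS* (1184) on the opposite strand and an unnamed lncRNA (79.7) on its own, and *FTH1* overlaps *BEST1* (49.6) on the opposite strand. The library kit keeps strand, and whether the counting used it is not given in the sources used here.

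The wider pathway was read from lists of other genes, whose levels are means per gene unless the kilobase is named. All 9 partners and regulators of NRF2 were listed, with a median mean of 674, and 8 lay above the median of listed genes. *SQSTM1*, encoding p62, which can sequester KEAP1, was highest at 8733. *MAFG*, a small MAF partner, stood at 1288 and *CUL3*, the scaffold of the KEAP1 ligase, at 1149. *BACH1*, a repressor that competes for the same elements, stood at 498.

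Of 21 other NRF2 targets, 19 were listed, 14 above the median of listed genes and 8 in the top 10%. *TKT*, a transketolase gene of the pentose phosphate pathway, had the highest mean per gene, 8240. The thioredoxin reductase gene *TXNRD1* stood at 4878 and the peroxiredoxin gene *PRDX1* at 4785. Per kilobase the order changed, with *PRDX1* at 5064, the thioredoxin gene *TXN* at 3583 and the transaldolase gene *TALDO1* at 3277 all above *TKT* at 2750. *PGD*, an enzyme gene of the same pathway as *TKT* that supplies NADPH, stood at 2885. The aldo-keto reductase genes lay at the other end, *AKR1C3* at 83.2 and *AKR1C1* at 49.5, and *AKR1B10* and *AKR1C2* were not listed. Members of the *AKR1C* family are similar in sequence, so some of their reads could have been split, which was not tested. *SLC7A11*, the cystine importer, stood at 1136, and its partner chain *SLC3A2*, from the list of glutathione genes, at 4947.

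Of 25 other genes of glutathione synthesis, use and recycling, 23 were listed, with a median mean of 524, and 14 lay above the median of listed genes. That list median was close to the median of listed protein-coding genes alone, 526. The second enzyme of synthesis, *GSS*, stood at 2393, above *GCLC* and *GCLM* on both scales (1253 per kilobase). Among the peroxidases, *GPX1* was listed at 4295, below *GPX4* on both scales (4778 per kilobase), *GPX3* at 2044 and *GPX7* at 43.2, and *GPX2* was not listed. Glutathione reductase, *GSR*, stood at 775.

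Of 24 other iron genes, 20 were listed, 14 above the median of listed genes. *PCBP2* (11183) and *PCBP1* (3115), RNA-binding proteins that also carry iron to ferritin, were highest and second, on both scales (3540 and 1804 per kilobase). *ACO1* stood at 3071 per gene and 413 per kilobase. It encodes iron regulatory protein 1, one of the proteins that bind the stem-loops shown above, and *IREB2*, encoding the other, stood at 648. *NCOA4*, the receptor that leads ferritin to lysosomes, had a mean of 2376. *SLC40A1*, the iron exporter ferroportin, was not listed, nor were *CP*, *HEPH* and *FTMT*. The second transferrin receptor gene, *TFR2*, stood at 27.2, next to the lowest mean of the table, 26.7.

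**Figure D4:**
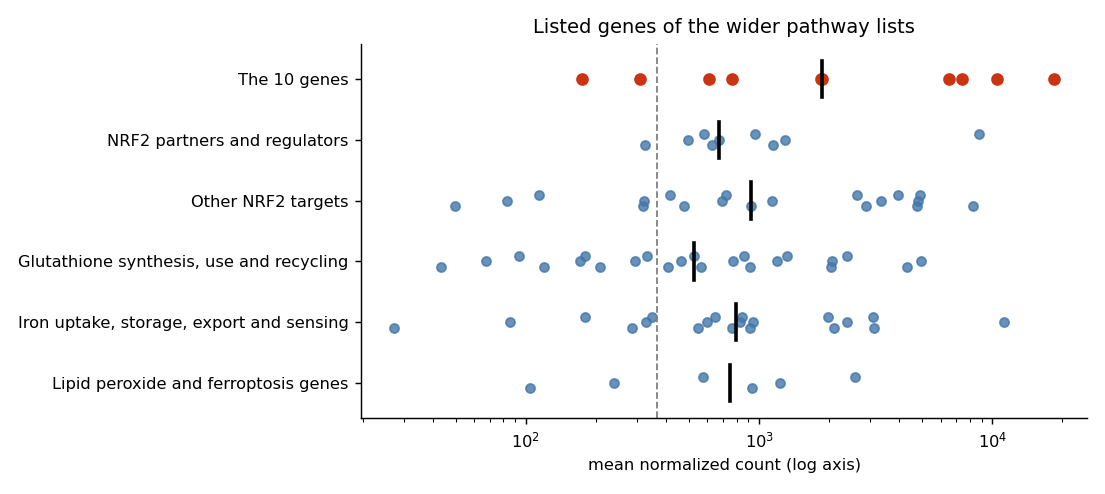
Authors' mean normalized count (log axis) of the 10 genes in red and of the listed genes of 5 wider lists in blue, 1 point per gene, shifted slightly in height so that points stay visible. Black bars mark each median and the dashed line the median of all listed genes, 364. The median of the 10 genes is 1857 and those of the lists lie between 524 and 919. The median of listed protein-coding genes alone, 526, is not drawn.

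Because RBMS3 is studied as a binder of AUA elements in 3′UTRs, the motif written in the study's CLIP-seq methods was counted in the 3′UTR of the 10 genes. Its letters are A, G or T, then A or T, then ATA, then A or T, then A, on the transcript strand with overlaps counted. All 10 genes held at least 1 match, as did 84.8% of the 12351 listed genes with a 3′UTR. *GCLM* had 26 matches in 3791 bases, a number reached by 3.21% of genes, and *TFRC* had 9 in 2658 bases, reached by 22.5%. These shares are not scaled by length. Per kilobase of 3′UTR, *GCLM* held 6.86 matches, *FTL* 6.94 and *TFRC* 3.39. *NQO1* had 6. *NFE2L2*, *GCLC* and *FTH1* had 2 each, and *KEAP1*, *HMOX1*, *GPX4* and *FTL* had 1. These counts are for the representative transcript. In the longest annotated 3′UTR *NFE2L2* had 8 matches, *TFRC* 11 and *FTH1* 1, and the counts of the others were unchanged. The 3′UTRs of the 10 genes ranged from 144 bases in *FTL*, longer than 5.76% of all, to 3791 in *GCLM*, longer than 84.1%. Those of *GCLM*, *TFRC*, *NQO1* (1575) and *GCLC* (1415) exceeded the median of all, 1378 bases, and the other 6 did not.

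Of the 51 matches in the 10 genes, 24 held AATAAA, the letters of the polyadenylation signal, which the motif contains when A, G or T precedes them. Whether those far from the transcript end act as signals was not tested. In all 10 genes the last match held AATAAA and ended at most 27 bases before the end of the transcript. A match that held AATAAA within 40 bases of the end was found in 52.2% of genes. When matches holding AATAAA were left out, 4 of the 10 genes kept a match, *GCLM* with 19, *TFRC* with 5, *NQO1* with 2 and *NFE2L2* with 1, and 62.4% of all genes did. In the other 6, *KEAP1*, *HMOX1*, *GCLC*, *GPX4*, *FTH1* and *FTL*, every match held these letters. The study's CLIP-seq methods name AATAAA as the most significant motif at RBMS3 sites. Genes whose matches all hold it are therefore not shown to lack such sites. The last matches of *NFE2L2*, *KEAP1*, *GPX4*, *FTH1* and *FTL* are shown as examples of a final match that holds the signal, on the transcript strand, with the motif in capitals. They lie in the last exon of the 3′UTR at chr2:177230317-177230345 (*NFE2L2*, minus strand), chr19:10486138-10486166 (*KEAP1*, minus strand), chr19:1106750-1106778 (*GPX4*, plus strand), chr11:61964291-61964319 (*FTH1*, minus strand) and chr19:48966849-48966877 (*FTL*, plus strand).
NFE2L2: agagctggtacTAATAAAggattattatg
KEAP1: ttttccaaggaAAATAAAgaacagactaa
GPX4: ctaccttgtggGAATAAAcagacaaatta
FTH1: acagtttttatGAATAAAaggcattaaag
FTL: ggaccaaatggAAATAAAgctttttgatg

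**Figure D5:**
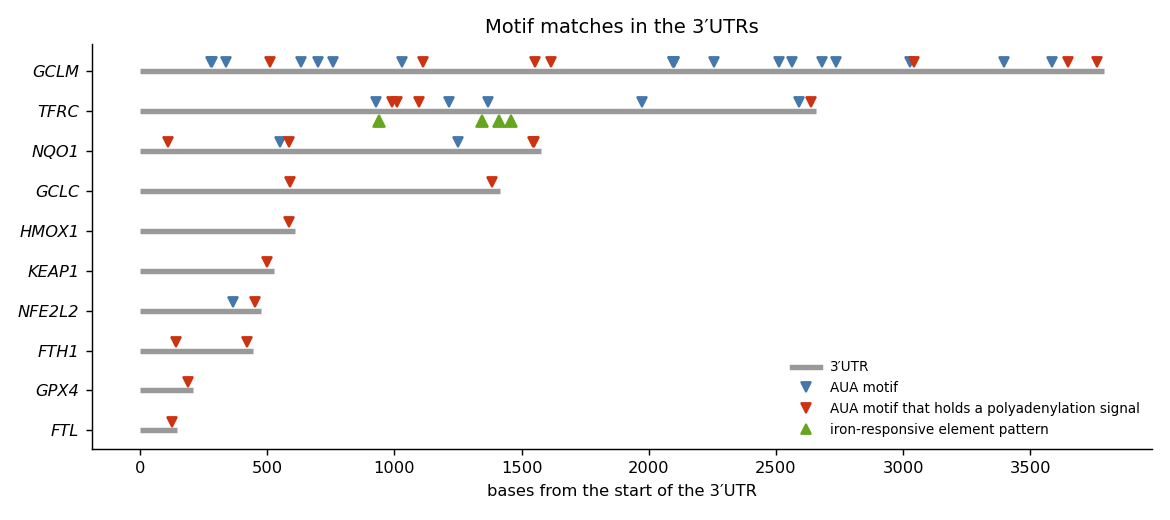
The 3′UTR of each of the 10 genes as a gray bar drawn to scale in bases from its start, with AUA motif matches as triangles above it (red where the match holds AATAAA, blue otherwise) and iron-responsive element patterns of *TFRC* as green triangles below it. Each 3′UTR ends with a red triangle, and blue ones are found in *GCLM*, *TFRC*, *NQO1* and *NFE2L2*.

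Promoter windows from RefSeq (GRCh38.p14), which run from 250 bases before to 50 bases after each start site, were searched on both strands for TGACNNNGC, the core letters of the antioxidant response element. Windows were found for 8 of the 10 genes, 12 in all. A match lay in 2 of these windows, those of *GCLM* and of 1 start site of *KEAP1*, against 13.3% of all 35116 windows. The *KEAP1* window held 2 matches. The sites are given as the letters NRF2 is known to recognize, on the strand of the gene with the match in capitals, and positions count from the start site. The *GCLM* match lies at -34 (chr1:93909446-93909474, minus strand, read on the opposite strand). The *KEAP1* matches lie at -54 (chr19:10502807-10502835) and, on the opposite strand, at -31 (chr19:10502784-10502812), and the gene is on the minus strand. For the other windows, no match says only that these letters are not in them.
GCLM: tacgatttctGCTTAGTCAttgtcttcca
KEAP1 a: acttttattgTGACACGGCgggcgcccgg
KEAP1 b: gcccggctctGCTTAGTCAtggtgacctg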

How the data were processed

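Total RNA of MDA-MB-231 cells was sequenced in 6 libraries with a stranded low-input kit and paired ends. Per the submitters' processing notes, Salmon and DESeq2 were used on hg38, and for this RNA-seq their versions and annotation are not given in the sources used here. The authors deposited a table with 1 row per gene. The signal used, deposited by the authors as baseMean, is a mean of normalized counts over libraries, and which libraries entered it is not stated. The table also holds 5 columns of the authors' own comparison of knockdown with control cells (log2 fold change, standard error, test statistic, p-value and adjusted p-value), which were not used here. Library depth, replicate error and tests are therefore missing, and the count test foreseen for values per library was not run. Genes below a mean of 26.7 are not in the table, so "not listed" does not mean absent.

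Of the 15917 identifiers, 15829 matched GENCODE release 44 on GRCh38. The representative transcript was MANE Select, otherwise Ensembl canonical, or else the one with most coding bases. A percentile is the percentage of listed genes with a lower value, and coding sequences include the stop codon. Wider genes were looked up by symbol, or by the identifier that GENCODE gives the symbol. The 10 genes, the lists and the markers were chosen with earlier results of these data known. All 10 genes are named, with the highest genes of each list and those of a named role. The lowest and other single genes of the lists were named after their values were seen. Some genes of the lists and searches are not reported here. Motif counters were tested on simulated data. Python 3.11.15, pandas 2.3.3, numpy 2.4.6 and SciPy 1.17.1 were used, with matplotlib 3.10.9.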

Additional observations from a re-analysis of the deposited data

How the results depend on the processing

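Counts of the 10 genes above the median (8) and in the top 10% (4) were the same among protein-coding genes alone, and per kilobase they were 7 and 4. The ratio of *FTH1* to *FTL*, 1.77, was 1.28 per kilobase and 2.11 with listed pseudogenes added. The ratio of *GCLC* to *GCLM*, 0.505, was 0.652 per kilobase. All 10 genes had an AUA motif in the longest 3′UTR as well, as did 83.2% of all listed genes with a 3′UTR. The number of matches changed for *NFE2L2*, *TFRC* and *FTH1*. In the representative 3′UTR, 3 of the 10 genes had at least 3 matches, against 53.1% of all genes. There, 4 had a match when those holding AATAAA were left out, against 62.4% of all genes. Leaving these matches out was tried after the data had been seen. The lower counts follow from the stricter definitions. Over 30 alternative percentiles of single genes, 29 stayed on the same side of 50. The exception was *GCLM*, at 62.5 per gene and 47.5 per kilobase of the representative transcript. The largest shift was 15.0 points. No spread between replicates was at hand to judge these shifts. Leaving out each replicate was not run, since no value per library was used. No paired analysis was possible because the value used is a mean over libraries and carries no replicate number.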

Other observations

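Genes that set the sensitivity of membranes to iron were listed in part. Of 9 genes of lipid peroxidation and ferroptosis beside *GPX4*, 6 were listed, with a median mean of 751. *ACSL4*, which loads polyunsaturated fatty acids for phospholipids, was highest at 2586 and above 90.7% of listed genes. *AIFM2*, encoding FSP1, which reduces ubiquinone at membranes independently of glutathione, stood at 1225. The oxidoreductase gene *POR* stood at 929, *LPCAT3* at 573, *DHODH* at 239 and *GCH1* at 104. The lipoxygenase genes *ALOX5*, *ALOX12* and *ALOX15* were not listed.

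Beside *FTH1* and *FTL*, the iron-responsive element pattern lay in the 5′UTR of genes that include *ADAR* (mean 5117), *PRPF18* (301) and *CHRNA10* (33.2). In the 3′UTR of *GPI* (6038), a glycolytic enzyme, it lay at 2 places. These genes were named after their sequences had been searched, and whether the matches in these genes form stem-loops was not tested.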
